A study of Mus musculus with 7 samples.

Results

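Meox1, Bdnf, Slitrk6 and Tshz2 were followed across mouse cranial and cardiac neural crest cells between E8.5 and E10.5. These 4 genes, of 32285 in the count tables, were chosen from the same libraries because they led the mesenchyme that expresses Hox genes of paralog group 3, so their excess in that mesenchyme is given as a description and not as a test. Cells came from 7 single-cell RNA-seq libraries (10x Chromium 3′ chemistry) of EGFP-positive cells sorted from embryos on a mixed Swiss-Webster background. The Wnt1-Cre driver, active in the dorsal neural tube, had switched on the ROSA-EGFP reporter in these cells, so that neural tube cells were sorted along with the crest. The 4 control libraries (Wnt1-Cre/+;ROSA-EGFPf/+) held 1 from the anterior portion of E8.5 embryos, 1 from the E9.5 pharyngeal apparatus with heart and 2 from E10.5 arches below PA1 with heart. The remaining 3 libraries, titled Tbx1 null, came from E9.5 (1 library) and E10.5 (2 libraries) and carried the same driver and reporter. Their genotype label reads Tbx1+/- whereas the study describes them as null, and they are called null here as in their titles. Tbx1 encodes a T-box factor made mainly by tissues next to the crest. In the Hox 3 mesenchyme defined below, its level was 18.1 and 11.8 CPM in the E10.5 controls and 8.34 and 5.69 CPM in the E10.5 nulls, 1.75 and 1.86 CPM in control and null at E9.5, with no UMI at E8.5 (CPM is a gene's UMIs scaled to all UMIs of the same cells). Whether the counted 3′ end lies in the inactivated part is not given in the sources used here, so these levels are no check of the labels. Each library pooled at least 2 embryos.

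Hox genes of higher paralog number are switched on in more caudal crest, Hoxa2 from the second pharyngeal arch (PA2) backwards and Hox 3 genes in the arches behind it, which feed the arch arteries and the cardiac outflow tract. Meox1 is a homeodomain transcription factor best known from somites. Bdnf is a secreted neurotrophin that signals through the receptor encoded by Ntrk2. Slitrk6 is a transmembrane protein with leucine-rich repeats that supports neurite growth and inner ear innervation, and Tshz2 is a zinc finger factor of the Teashirt family.  Mesenchymal cells were defined by at least 2 UMIs (counted molecules) of Twist1, Prrx1 and Prrx2 together. They were divided into Hox 3 mesenchyme (at least 2 UMIs of Hoxa3, Hoxb3 and Hoxd3), Hoxa2 mesenchyme (at least 2 UMIs of Hoxa2 and none of Hox 3) and Hox-free mesenchyme (none of either). Cells with a single such UMI were left undecided. In mouse build GRCm38, Meox1 (ENSMUSG00000001493) occupies chr11:101877510-101894374 on the minus strand and Slitrk6 (ENSMUSG00000045871) chr14:110748580-110755149 on the minus strand. Bdnf (ENSMUSG00000048482) occupies chr2:109674700-109727007 and Tshz2 (ENSMUSG00000047907) chr2:169633013-170071816, both on the plus strand. Genes annotated on the opposite strand overlap Meox1, Bdnf and Tshz2 but not Slitrk6.

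Promoter windows of 250 bases before to 50 after the RefSeq start (GRCm38.p6) were at hand for 3 of the 4 genes, 7 of the 9 windows belonging to Bdnf, which has many alternative first exons. They are shown because Bdnf, Slitrk6 and Tshz2 were the members with a window, all 3 having their highest Hox 3 levels at E10.5. The windows were searched on both strands for TGACAG (bound by MEIS-type cofactors of Hox proteins), TGATNNAT (PBX-HOX pairs), TAATTA (homeodomain) and AGGTGT (T-box), shown in capitals. These letters were found in 19.2%, 8.85%, 5.29% and 13.7% of all 32851 promoter windows, respectively. The Slitrk6 window (chr14:110755100-110755399, minus strand) and the Tshz2 window (chr2:169632259-169632558, plus strand) held none of the 4 motifs. Of the 7 Bdnf windows, 3 held TGACAG or TGATNNAT and 1 held AGGTGT. The Bdnf window printed here (chr2:109692186-109692485, plus strand) was picked for holding the most matches, with TGACAG beginning 227 and 45 bases before the start and TGATNNAT, read on the other strand, 128 bases before it. A match is a description of the letters and not of a bound site.
Slitrk6: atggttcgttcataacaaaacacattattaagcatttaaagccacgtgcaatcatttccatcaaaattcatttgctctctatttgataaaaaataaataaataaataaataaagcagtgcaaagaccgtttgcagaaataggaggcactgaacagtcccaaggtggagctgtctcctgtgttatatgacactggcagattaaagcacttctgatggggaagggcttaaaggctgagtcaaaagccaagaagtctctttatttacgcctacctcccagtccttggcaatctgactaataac
Tshz2: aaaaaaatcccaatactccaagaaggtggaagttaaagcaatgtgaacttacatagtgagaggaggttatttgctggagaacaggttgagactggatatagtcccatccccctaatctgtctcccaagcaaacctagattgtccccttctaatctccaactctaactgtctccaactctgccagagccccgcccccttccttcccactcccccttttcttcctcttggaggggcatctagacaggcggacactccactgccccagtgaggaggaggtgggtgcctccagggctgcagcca
Bdnf: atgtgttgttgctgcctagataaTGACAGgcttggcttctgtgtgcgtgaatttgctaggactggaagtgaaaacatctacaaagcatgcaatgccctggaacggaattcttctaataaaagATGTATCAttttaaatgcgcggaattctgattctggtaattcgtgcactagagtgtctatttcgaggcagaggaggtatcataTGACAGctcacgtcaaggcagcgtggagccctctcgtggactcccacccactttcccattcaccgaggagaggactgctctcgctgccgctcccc
GC content differed among them, from 38.3% in the Slitrk6 window to 48.7% in this Bdnf window and 52.0% in the Tshz2 window, against a median of 52.7% over all windows. Reads from the 3′ end do not tell which Bdnf start was used.

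The libraries held between 140264662 and 234844769 UMIs, and after filtering 5587 to 9556 cells each. No more than 44 cell barcodes were shared by any pair of libraries. The Hox 3 mesenchyme numbered 48 cells at E8.5, 774 and 796 cells in the control and null libraries at E9.5, 883 and 1084 in the E10.5 controls and 1641 and 1453 in the E10.5 nulls. It made up 14.5% of the mesenchyme of control and 11.2% of null at E9.5. At E10.5 it made up 26.5% and 16.4% in the controls and 51.3% and 65.2% in the nulls, whose dissection labels also differ (arches 2-6 in controls, everything below arch 1 in nulls). Null replicate 2 at E10.5 stood apart. Only 20 of its Hox 3 cells had at least 2 UMIs of the distal arch genes Dlx5 and Dlx6, against 145 to 170 in the other E10.5 libraries, and its summed level of 4 neuronal markers (Elavl3, Elavl4, Stmn2, Tubb3) in Hox 3 mesenchyme was 1060 CPM, against 91.3 to 212 CPM in the other 3. The 3 mesenchymal genes, which the class rule itself requires and which are therefore no check of identity, summed to 148 CPM in the Hox 3 cells at E8.5 and 766 to 1366 CPM later. At least 2 UMIs of the migrating crest markers Sox10 and Foxd3 were found in 81.25% of Hox 3 cells at E8.5. The share was 34.6% in control and 38.1% in null at E9.5, 0.566% and 0.738% in the E10.5 controls and 6.76% and 7.98% in the E10.5 nulls. Its part in the stage differences given below was not tested.

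Meox1 was highest in the Hox 3 mesenchyme of E9.5 embryos. Its level was 74.9 CPM at E8.5, 313 CPM in the E9.5 control and 24.1 and 29.7 CPM in the E10.5 controls. The null libraries gave 189 CPM at E9.5 and 48.5 and 12.9 CPM at E10.5. Each E10.5 control was therefore 13.0- and 10.5-fold below the E9.5 control, and the E10.5 nulls 3.89- and 14.6-fold below the E9.5 null. With a single library per genotype at E9.5 this stage difference has no replicate check. The dissections and the share of Hox 3 cells with Sox10 and Foxd3 also differed between stages. The kit was v3.1 in all 3 controls compared, and v3 in the E9.5 null and null replicate 1 at E10.5 but v3.1 in null replicate 2. In every library Hox 3 mesenchyme exceeded Hoxa2 mesenchyme, by 7.78-fold at E8.5, 3.02-fold in the E9.5 control, 9.38-fold in the E9.5 null and 2.08- to 21.7-fold at E10.5. Hoxa2 mesenchyme of the E9.5 control nonetheless held 104 CPM, more than any E10.5 library had in Hox 3 mesenchyme. At E9.5 the Hox-free mesenchyme came last (18.7 CPM in control), but at E10.5 Hox-free cells had more Meox1 than Hoxa2 cells in each of the 4 libraries (4.23 to 12.8 against 2.24 to 6.20 CPM).

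Bdnf was nearly silent until E10.5. In Hox 3 mesenchyme it gave 2.85 CPM (4 UMIs) at E8.5, 1.18 CPM in control and 2.32 CPM in null at E9.5. At E10.5 the controls reached 57.4 and 85.8 CPM and the nulls 24.4 and 49.2 CPM, which is 48.6- and 72.7-fold above the E9.5 control and 10.5- and 21.2-fold above the E9.5 null. Hoxa2 mesenchyme of the same E10.5 libraries held 5.67 and 6.32 CPM in controls and 4.73 and 18.8 CPM in nulls. Hox-free mesenchyme was intermediate in the E10.5 controls, at 19.0 and 14.3 CPM. Before E10.5 the excess of Bdnf in Hox 3 cells was small or absent, at 0.889-fold over Hoxa2 mesenchyme at E8.5 and 1.35- and 2.28-fold in control and null at E9.5. Over Hox-free mesenchyme it was 2.26- and 1.78-fold at E9.5. The 95% counting intervals of Hox 3 and Hoxa2 mesenchyme overlapped at E8.5 (0.778 to 7.31 and 1.76 to 5.39 CPM) and in the E9.5 control (0.764 to 1.74 and 0.453 to 1.53 CPM), and also, narrowly, in the E9.5 null (1.69 to 3.11 and 0.542 to 1.74 CPM).

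Slitrk6 was low before E10.5 as well, yet by E9.5 its level was already higher in Hox 3 than in Hoxa2 cells. No UMI was found in the 48 Hox 3 cells of E8.5, which allows a level of up to 2.14 CPM (3 UMIs). It gave 4.06 CPM in the control and 4.13 CPM in the null at E9.5, against 0.219 and 0.235 CPM (3 UMIs each) in Hoxa2 mesenchyme. At E10.5 its Hox 3 level was 28.7 and 60.8 CPM in controls and 28.5 and 22.5 CPM in nulls, 7.07- and 15.0-fold above the E9.5 control and 6.91- and 5.44-fold above the E9.5 null. Hox 3 over Hoxa2 mesenchyme was 7.94- and 9.92-fold in the controls and 14.0- and 4.12-fold in the nulls. Null replicate 2 was also the only E10.5 library whose Hox-free mesenchyme (13.8 CPM, 156 cells) came near its Hox 3 mesenchyme. Slitrk6 was not particular to mesenchyme. Crest cells with Sox10 or Foxd3 and no mesenchymal call held 32.0 and 54.5 CPM in the E10.5 controls and 29.1 and 27.0 CPM in the nulls.

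Tshz2 had the smallest excess of Hox 3 over Hox-free mesenchyme of the 4 genes in each E10.5 library. Hox 3 mesenchyme held 17.8 CPM at E8.5, 43.4 and 44.8 CPM in control and null at E9.5, 82.8 and 117 CPM in the E10.5 controls and 79.8 and 74.2 CPM in the E10.5 nulls. It exceeded Hoxa2 mesenchyme 2.20- to 3.65-fold in all 7 libraries. Against Hox-free mesenchyme the ratio was 4.96-fold in the E9.5 control but only 1.37- and 1.31-fold in the E10.5 controls and 2.37- and 1.22-fold in the E10.5 nulls. The dissections differed, as PA1 was left out at E10.5. Smooth muscle markers (Acta2, Tagln, Cnn1 and Rgs5) in control Hox-free cells summed to 34.2 CPM at E9.5 and 280 and 256 CPM at E10.5. Median depth of the E10.5 control Hox-free cells was 17115 and 13634 UMIs, against 23185 and 17714 UMIs in Hox 3 cells. The part of these differences in the Hox-free levels of the 4 genes was not tested. E10.5 neurons also held 42.4 and 65.6 CPM of Tshz2 in controls and neural progenitors 30.2 and 53.4 CPM. Meox1 and Tshz2 thus followed the order Hox 3 above Hoxa2 in all 7 libraries, Slitrk6 in the 6 libraries from E9.5 and E10.5, and Bdnf in those same 6 but not at E8.5 (0.889-fold).

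**Figure D1:**
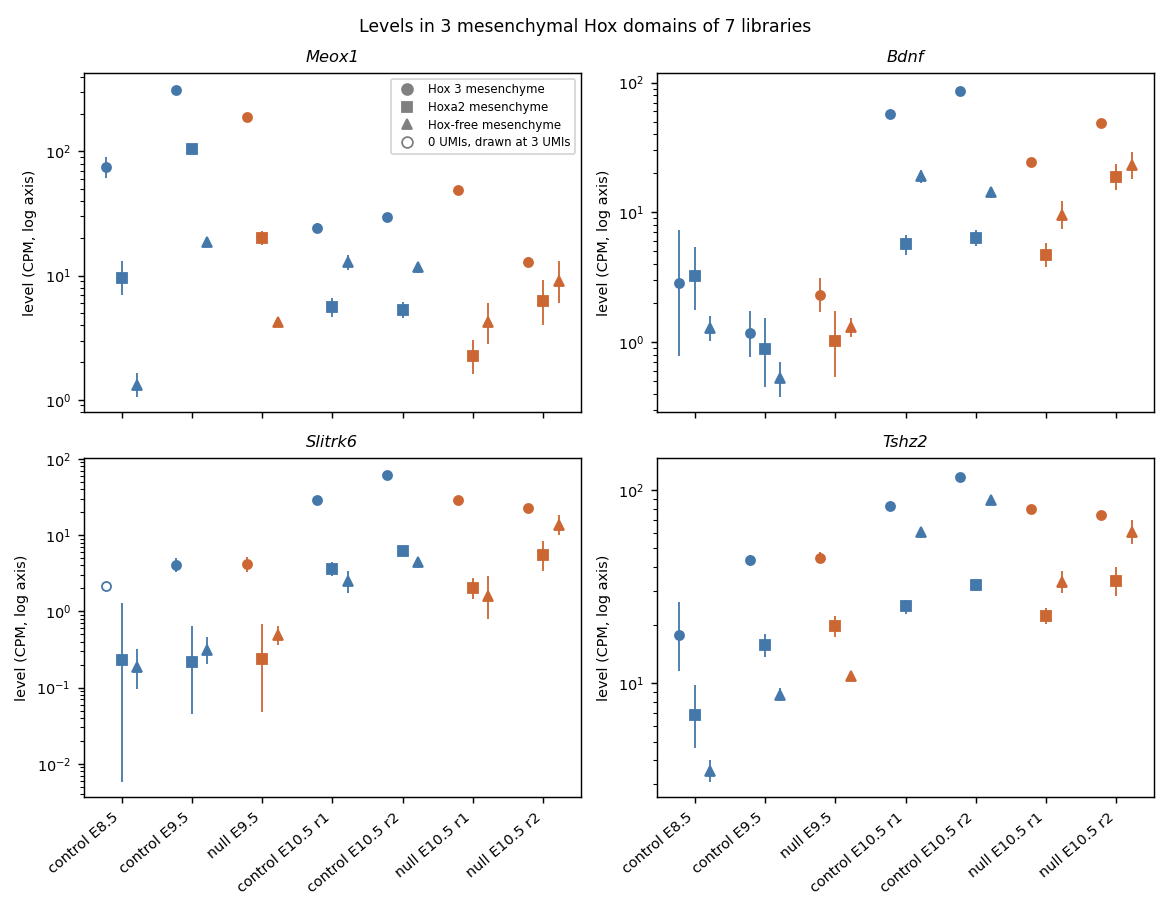
Level (CPM, log axis) of each gene in Hox 3 (circles), Hoxa2 (squares) and Hox-free (triangles) mesenchyme of the 7 libraries, with controls in blue, nulls in orange and bars giving the 95% Poisson interval of the UMI count. The open Slitrk6 circle at E8.5 stands for 0 UMIs and is drawn at the level of 3 UMIs. The other circles lie above the squares in all libraries except for Bdnf at E8.5. Meox1 peaks at E9.5 (313 CPM in control), and the other 3 genes are highest at E10.5.

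Detection of Meox1, Bdnf and Slitrk6 in single Hox 3 cells was read after each cell was thinned to 5000 UMIs. Meox1 was detected in 60.2% of Hox 3 cells of the E9.5 control and 43.4% of the null, but in 9.33% and 13.5% of the E10.5 controls and 17.6% and 5.03% of the E10.5 nulls. Without thinning the E9.5 shares were 78.9% and 66.8%. In neural progenitors, which are expected to lack it, Meox1 was detected in 0.546% and 0.556% of thinned cells at E9.5 (median depth 16241 and 14983 UMIs, against 26335 and 23076 UMIs in Hox 3 cells). At E10.5 Bdnf was detected in 15.8% and 25.5% of thinned control Hox 3 cells and Slitrk6 in 11.6% and 22.7%, against 0.419% and 0.368% (Bdnf) and 0% and 0.184% (Slitrk6) of progenitors. Few cells held several of these transcripts at this depth, which cannot limit how many express them. Of thinned Hox 3 cells in the E10.5 controls, 50.6% and 30.2% had no UMI of any of them, and 0 of 879 and 4 of 1082 had all 4. Bdnf and Slitrk6 were seen in the same cell 31 times in control replicate 1, where 16.1 would be met if they were independent, and 90 times against 62.8 in replicate 2. In the nulls it was 21 against 14.4 and 50 against 17.4. For Meox1 and Bdnf the counts were 13 against 13.0 and 24 against 37.2 in controls and 26 against 24.0 and 16 against 11.2 in nulls. Meox1 and Tshz2 gave 28 against 24.3 and 58 against 58.6 in controls and 104 against 79.0 and 40 against 19.3 in nulls. These are descriptions of sparse counts in cells of unequal content.

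Over 18 profiles (3 Hox domains of the 6 libraries from E9.5 and E10.5, which share library and depth within a library) the log2 levels of Bdnf, Slitrk6 and Tshz2 were correlated, and since the genes were chosen for leading the Hox 3 domain of these libraries, part of the correlation is fixed by that choice. Pearson's r was 0.88 for Bdnf with Slitrk6, 0.86 for Slitrk6 with Tshz2 and 0.85 for Bdnf with Tshz2, while Meox1 gave -0.22 with Bdnf, 0.10 with Slitrk6 and 0.19 with Tshz2. Among 7106 genes reaching 20 CPM in some profile, those closest to Meox1 were Igfbp3 (r = 0.86), Pcbd1 (0.84) and Camk2b (0.81). Closest to Bdnf were Pdgfrl (0.98), Nfia (0.96) and Robo1 (0.96). Slitrk6 was closest to Efemp1 (0.95), Rnf150 (0.93) and Tshz3 (0.93), and Tshz2 to Tshz3 (0.94), Zswim6 (0.93) and Filip1l (0.91). Tshz3, a paralog of Tshz2, therefore appeared beside both Slitrk6 and Tshz2, with a Hox 3 level of 9.59 CPM in the E9.5 control and 27.7 and 25.6 CPM in the E10.5 controls.

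At E9.5 Meox1 was lower in the null than in the control library, and more so outside the Hox 3 mesenchyme than within it. Hoxa2 mesenchyme held 104 CPM in the control library (1423 UMIs in 518 cells) and 20.1 CPM in the null library (257 UMIs in 505 cells). After scaling between the libraries by TMM the levels were 106 and 19.7 CPM, a log2 ratio of null over control of -2.42 (95% counting interval -2.62 to -2.23). No other gene had a lower ratio in these cells, Meox1 taking rank 1 of the 4993 genes that reached 20 CPM in either genotype, of which 28 (0.561%) were at least 2-fold lower in null. Hox-free mesenchyme gave 18.7 and 4.23 CPM (log2 ratio -2.19, interval -2.34 to -2.04). In Hox 3 mesenchyme the difference was smaller, 313 against 189 CPM (log2 ratio -0.83, interval -0.89 to -0.77), with rank 79 of 5016 genes, 44 of which (0.877%) were at least 2-fold lower in null. After thinning, 25.3% of control and 6.14% of null Hoxa2 cells had a Meox1 UMI (47.7% and 20% without thinning). Sox10 or Foxd3 crest cells did not share the direction, with 27.2 CPM in control and 35.2 CPM in null. There was 1 library per genotype, so these values have no replicate check, and the intervals cover counting error only. The kits also differed (v3.1 in control, v3 in null), and the median mitochondrial share per cell was higher in null, at 3.12% against 1.91% in Hox 3, 2.78% against 1.94% in Hoxa2 and 2.50% against 1.91% in Hox-free mesenchyme. The part of both in the result was not tested. Of 6 markers of somitic mesoderm, where Meox1 is abundant, 3 were detected in Hoxa2 mesenchyme of each library. They summed to 4.45 CPM in control and 3.68 CPM in null. In Hox-free mesenchyme 6 and 5 were detected, at a summed 4.55 CPM in control and 4.95 CPM in null. In Hox 3 mesenchyme 4 and 5 of the 6 were detected, at a summed 13.7 CPM in control and 12.2 CPM in null. The part of somitic cells in the Meox1 levels of these domains was not tested.

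The other 3 genes did not share this direction at E9.5 beyond their counting intervals. In Hox 3 mesenchyme the log2 ratio of null over control was -0.07 for Slitrk6 (interval -0.53 to 0.38) and -0.05 for Tshz2 (-0.18 to 0.09). Bdnf was higher in null by 0.87 (0.14 to 1.65), on 25 and 45 UMIs. Tshz2 gave 0.27 both in Hoxa2 mesenchyme (interval -0.00106 to 0.54) and in Hox-free mesenchyme (0.14 to 0.41, on 702 and 1190 UMIs). In Hoxa2 mesenchyme Bdnf and Slitrk6 had 13 UMIs or fewer per library. Bdnf was also higher in null in Hox-free mesenchyme (1.27, interval 0.77 to 1.81), on 42 and 143 UMIs.

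**Figure D2:**
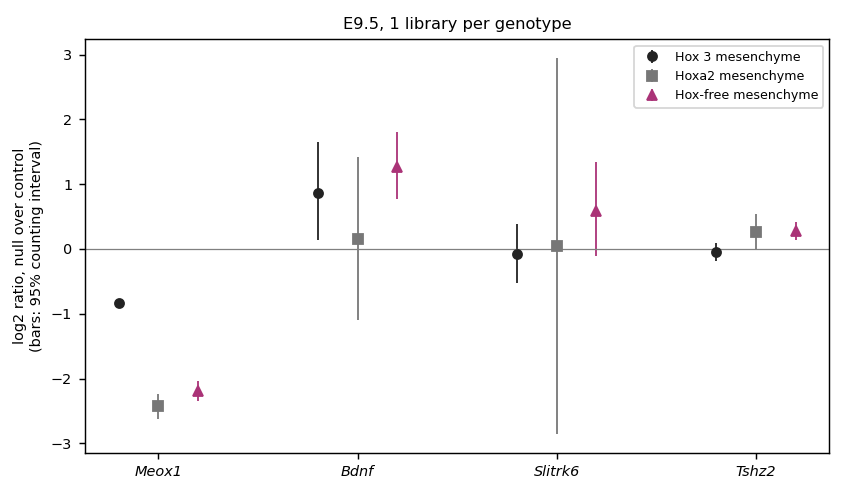
Log2 ratio of TMM-scaled level, null over control, at E9.5 for each gene in Hox 3 (circles), Hoxa2 (squares) and Hox-free (triangles) mesenchyme, 1 library per genotype, with bars giving the 95% counting interval. Meox1 lies below 0 in all 3 domains, at -0.83, -2.42 and -2.19, while the interval of Tshz2 includes 0 in Hox 3 and Hoxa2 mesenchyme and lies above 0 in Hox-free mesenchyme (0.14 to 0.41).

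At E10.5, with 2 libraries per genotype, none of the 4 genes passed the test in Hox 3 mesenchyme. edgeR's quasi-likelihood test called 0 of 14316 genes (0%) at an adjusted p under 0.05 there. An unadjusted p under 0.05 was reached by 1561 genes, and DESeq2 called 148, none of the 4 genes among them. The levels of Bdnf in both nulls (24.4 and 49.2 CPM) lay under both controls (57.4 and 85.8 CPM), with a log2 fold change of -1.15 (SE 0.35, adjusted p = 0.419). It was -0.72 without null replicate 1 and -1.63 without null replicate 2. Slitrk6 was -0.97 (SE 0.39, adjusted p = 0.440) and ranged from -1.44 without control replicate 1 to -0.29 without control replicate 2, but null replicate 1 (28.5 CPM) was barely under control replicate 1 (28.7 CPM). Tshz2 was -0.54 (SE 0.26, adjusted p = 0.489), from -0.80 to -0.23 without those same controls. For Meox1 the nulls lay on either side of the controls, at 48.5 and 12.9 CPM around 24.1 and 29.7 CPM, and the log2 fold change was 0.07 (SE 0.57, adjusted p = 0.969), with -1.23 when null replicate 1 was left out and 0.77 when null replicate 2 was. In these cells Sox10 and Foxd3, markers of migrating crest, summed to 2.84 and 4.08 CPM in the controls and 37.6 and 49.5 CPM in the nulls, without overlap. At least 2 UMIs of them were found in 0.566% and 0.738% of control and 6.76% and 7.98% of null Hox 3 cells. At E9.5 the sums were 64.0 CPM in control and 92.7 CPM in null. Markers of pharyngeal and second heart field mesoderm (Tbx1, Tcf21, Nkx2-5 and Fgf10) summed to 17.3 to 23.9 CPM in the E10.5 controls and 11.3 to 12.0 CPM in the nulls, but this list holds Tbx1 itself and so does not read the amount of mesoderm. Neural progenitor markers summed to 29.2 to 232 CPM in controls and 222 to 391 CPM in nulls. Smooth muscle markers (Acta2, Tagln, Cnn1 and Rgs5) summed to 226 and 111 CPM in controls and 37.7 and 91.7 CPM in nulls. Markers of somite and paraxial mesoderm, a tissue rich in Meox1, summed to 24.0 and 18.7 CPM in the E10.5 controls and 19.2 and 37.7 CPM in the nulls. The highest sums of the remaining lists in any E10.5 library were 43.5 CPM (epithelium), 16.7 CPM (heart muscle), 8.90 CPM (blood) and 4.46 CPM (endothelium). Null replicate 1 was also the only E10.5 library made with kit v3, the others being v3.1. The study lists fewer somites for its embryos than for those of any other E10.5 library, so it was the youngest. The part of these markers, of the kit, of the somite stage and of the dissection in the values of the 4 genes was not tested. The same holds for the neuronal markers and few Dlx5 and Dlx6 cells of null replicate 2.

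Hoxa2 mesenchyme showed no call for the 4 genes either. There 46 of 13300 genes (0.346%) passed, and the log2 fold changes were -0.69 for Meox1 (SE 0.44, adjusted p = 0.544), 0.68 for Bdnf (SE 0.50, adjusted p = 0.599), -0.71 for Slitrk6 (SE 0.48, adjusted p = 0.570) and -0.20 for Tshz2 (SE 0.26, adjusted p = 0.778). This rested on single libraries. Without null replicate 2 (164 Hoxa2 cells) Meox1 was -1.35 and Slitrk6 -1.34. Bdnf was 1.47 without null replicate 1. Each of these fits left a lone null library, so only the effect sizes are given. The Hoxa2 levels of the nulls differed accordingly, with Meox1 at 2.24 and 6.20 CPM against 5.58 and 5.32 CPM in controls, and Bdnf at 4.73 and 18.8 CPM against 5.67 and 6.32 CPM. Null replicate 2, with the 18.8 CPM, also stood apart in these cells in its neuronal markers (164 CPM, against 22.4 to 35.9 CPM in the other 3 libraries) and smooth muscle markers (273 CPM, against 40.2 to 74.4 CPM), and their part in the Hoxa2 values and in the interaction below was not tested. Over all mesenchyme, where the share of Hox 3 cells and the level per cell cannot be told apart, 16 of 15919 genes (0.101%) passed. The 4 genes had log2 fold changes of 0.47 (Meox1, SE 0.43), -0.07 (Bdnf, SE 0.39), 0.10 (Slitrk6, SE 0.25) and -0.19 (Tshz2, SE 0.23), with adjusted p from 0.622 to 0.944.

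Whether genotype acted differently in the 2 domains was tested by an interaction with library as a block, which called 106 of 14393 genes (0.736%). Bdnf came nearest, its genotype effect being lower in Hox 3 than in Hoxa2 mesenchyme by a log2 difference of -1.61 (SE 0.30, adjusted p = 0.0692). It passed under DESeq2 size factors (-1.67, adjusted p = 0.0339), where 168 genes were called. Without the filter on low counts, where 701 genes were called, it passed too (-1.58, adjusted p = 5.455e-08). When control replicate 1 or either null library was left out, Bdnf was -1.82, -2.23 and -1.27. Its direction was negative in every alternative, but it did not pass in all of them. Meox1 gave 1.33 (SE 0.70, adjusted p = 0.563), and 1.35 without the filter (adjusted p = 0.0106). It was 2.07 without null replicate 2 and -1.29 without null replicate 1. Slitrk6 gave 0.13 (SE 0.41) and Tshz2 -0.20 (SE 0.19), neither passing, and Tshz2 was -0.70 without null replicate 1.

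Inside the Hox 3 mesenchyme of E10.5 the mean levels of Bdnf, Slitrk6 and Tshz2 differed between groups of cells, whereas Meox1 passed none of the 3 contrasts. These contrasts were not themselves used to choose the genes. Hox 4 and 5 genes follow the same rostral to caudal axis as the Hox 3 genes used in the choice. The Hox 4 and 5 contrast is therefore not fully independent of it. The cells were divided by 3 gene groups in turn. Dlx5 and Dlx6 mark distal (ventral) arch mesenchyme, Hox genes of groups 4 and 5 mark more caudal crest, and Isl1, Gata3 and Hand1 are called outflow tract genes here. Cells with at least 2 UMIs of a group were compared with cells with 0, with library as a block and the dividing genes left out. All 4 genes passed the filter on low counts in each contrast tested at E10.5. Hox 3 mesenchyme of these libraries also carried neural progenitor markers (29.2 to 391 CPM) and neuronal markers (91.3 to 1060 CPM). How these markers were spread over the sides of each contrast is not given, and their part in the contrasts was not tested.

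Bdnf was low in Dlx5 and Dlx6 cells. In the controls it gave 79.6 and 112 CPM in cells without Dlx and 5.58 and 9.05 CPM in cells with it. In the nulls the levels were 26.2 and 50.3 CPM without and 8.96 and 19.6 CPM with it, so that the sides did not overlap. The log2 fold change was -2.85 (SE 0.35, adjusted p = 0.00108), against a background of 1164 of 12341 genes called (9.43%). This is a common effect for both genotypes. By the levels above the drop was larger in the controls than in the nulls, a difference that was not tested. Tshz2 was higher in the Dlx cells in all 4 libraries, at 98.3, 120, 122 and 161 CPM against 73.4, 114, 71.7 and 72.1 CPM (0.61, SE 0.14, adjusted p = 0.0233). That call was lost without control replicate 1 (adjusted p = 0.114), null replicate 1 (0.0780) or null replicate 2 (0.0730). Slitrk6 gave -0.27 (SE 0.17, adjusted p = 0.394) and Meox1 0.05 (SE 0.16, adjusted p = 0.903). The Dlx cells of null replicate 2 numbered 20, and without that library Bdnf was -3.01 (adjusted p = 0.00513). Dlx cells were deeper, with medians of 24030 to 29239 UMIs over the 4 libraries against 16906 to 23586 UMIs, and the part of depth was not tested.

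Slitrk6 rose and Tshz2 fell with Hox 4 and 5 expression, but the rise of Slitrk6 was slight in null replicate 2 and absent in thinned cells. Slitrk6 gave 34.0 and 70.2 CPM in control cells with these Hox genes against 19.3 and 41.0 CPM in cells without, and 32.2 and 23.2 CPM against 19.9 and 21.6 CPM in the nulls. Its log2 fold change was 0.66 (SE 0.10, adjusted p = 0.00381), where 770 of 12751 genes were called (6.04%). Tshz2 was lower in the Hox 4 and 5 cells of each library, at 67.3, 101, 73.3 and 69.8 CPM against 111, 147, 84.9 and 83.9 CPM (-0.40, SE 0.08, adjusted p = 0.0109). Meox1 (0.21, SE 0.07, adjusted p = 0.157) and Bdnf (0.09, SE 0.11, adjusted p = 0.738) did not pass. When cells were thinned to 5000 UMIs and the classes set anew on the thinned counts, Slitrk6 gave -0.16 (adjusted p = 0.936). Median depth on the sides was alike, 18178 to 23993 UMIs with Hox 4 and 5 and 17616 to 23755 without, over the 4 libraries. The cause of the change under thinning was not tested.

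Slitrk6 fell in cells with Isl1, Gata3 and Hand1. It gave 9.20 and 16.3 CPM in these cells of the controls and 17.3 and 12.2 CPM in the nulls, against 33.0, 69.5, 29.6 and 25.5 CPM in cells without, which left no overlap between the sides. The log2 fold change was -1.38 (SE 0.21, adjusted p = 0.00514), and 1949 of 12795 genes were called (15.2%). It was -0.86 with the split at 1 UMI (adjusted p = 0.0536) and -1.88 in thinned cells (adjusted p = 0.0541). The outflow tract side was deeper (medians of 19138 to 27155 against 17446 to 23440 UMIs), and the part of depth was not tested. Bdnf just missed the threshold (-1.12, SE 0.32, adjusted p = 0.0517), and its libraries were unlike. The controls held 23.7 and 18.7 CPM with the outflow tract genes against 68.4 and 101 CPM without, while null replicate 1 held 22.3 against 22.5 CPM and null replicate 2 31.9 against 55.6 CPM. Without null replicate 1 Bdnf was -1.49 (adjusted p = 0.00910). Tshz2 gave 0.34 (SE 0.10, adjusted p = 0.0519), with 0.49 without null replicate 2 (adjusted p = 0.00436), and Meox1 -0.21 (SE 0.18, adjusted p = 0.513).

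**Figure D3:**
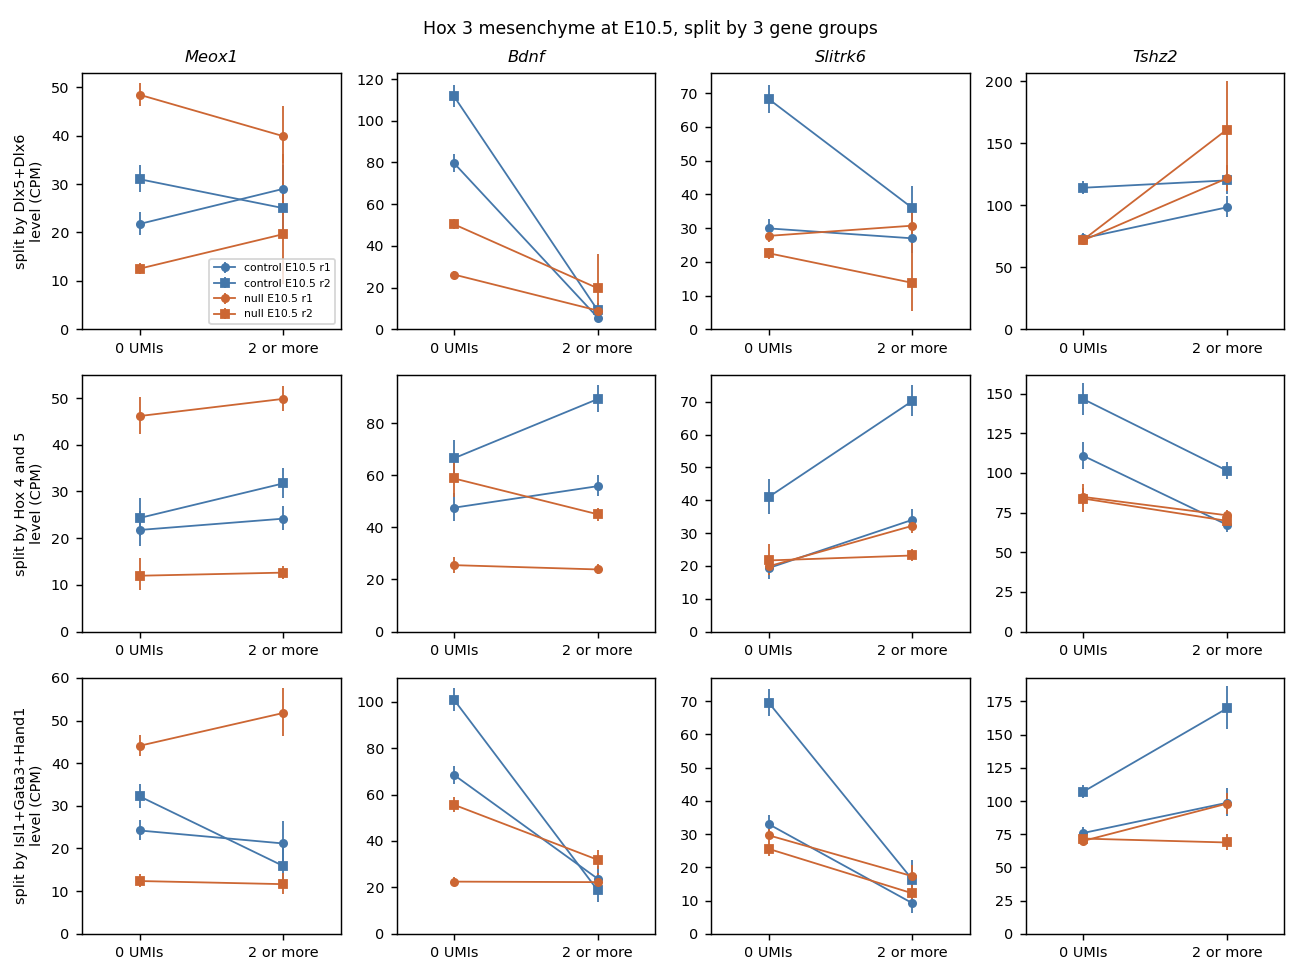
Level (CPM) of each gene in Hox 3 mesenchyme of the 4 E10.5 libraries, in cells with 0 or with 2 or more UMIs of the gene group named at the left, with controls in blue, nulls in orange and bars giving the 95% Poisson interval. Bdnf drops with Dlx5 and Dlx6 in all 4 libraries (from 112 to 9.05 CPM in control replicate 2), and Slitrk6 drops with Isl1, Gata3 and Hand1 in all 4.

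**Figure D4:**
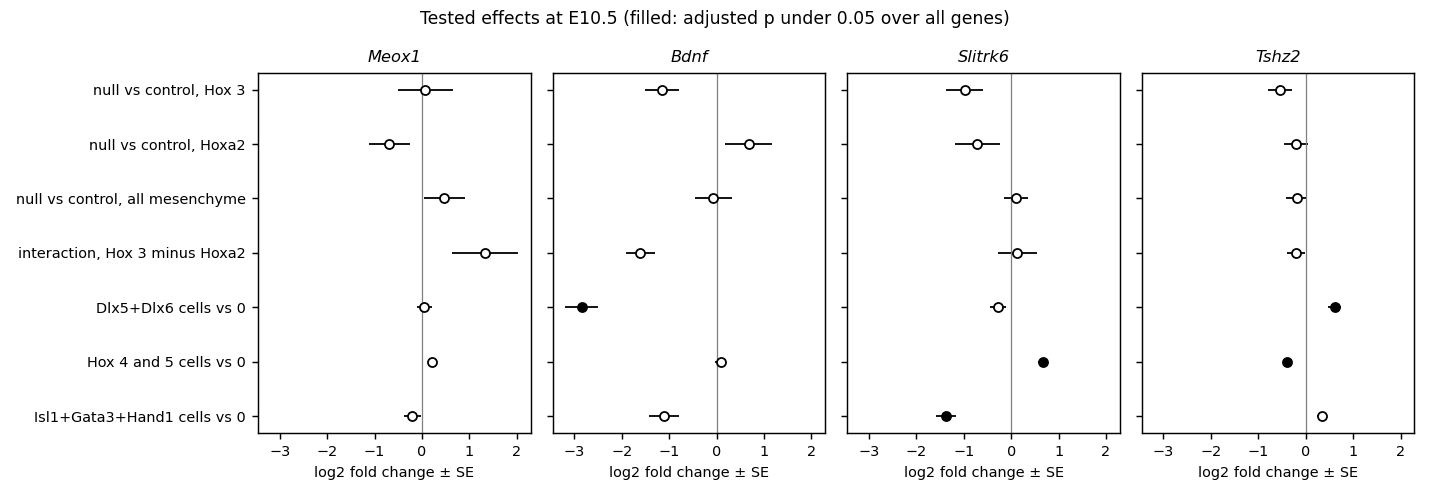
Log2 fold change with its SE for the 7 tested contrasts at E10.5, with filled points for an adjusted p under 0.05 over all genes tested. The 5 filled points all belong to contrasts inside the Hox 3 mesenchyme: Bdnf and Tshz2 for Dlx5 and Dlx6 (-2.85 and 0.61), Slitrk6 and Tshz2 for Hox 4 and 5 (0.66 and -0.40) and Slitrk6 for Isl1, Gata3 and Hand1 (-1.38).

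Relatives and partners of the 4 genes were read in the same contrasts. The most abundant relative in Hox 3 mesenchyme was Tshz1, at 85.2 and 85.7 CPM in the E10.5 controls and 54.0 and 82.7 CPM in the nulls. Of all genes, 817 of 12341 were lower and 347 higher in Dlx5 and Dlx6 cells. Of 8 family relatives (Meox2, Slitrk1 to Slitrk5, Tshz1 and Tshz3), 5 could be tested for Dlx5 and Dlx6, where Tshz1 rose like Tshz2 (log2 0.60, adjusted p = 0.0204) and Tshz3 fell (-1.04, adjusted p = 0.0142). The list median was -0.75 against 0.00 over all genes. For Hox 4 and 5, where 6.04% of all genes were called, 1 of 6 rose (Tshz3, 0.59, adjusted p = 0.00341), whereas Tshz2 fell. For the outflow tract genes, where 15.2% of all genes were called, 2 of 6 fell, Tshz1 (-0.83) and Tshz3 (-0.60). Of 8 neurotrophin genes and receptors, 6 were tested for Dlx5 and Dlx6, and 2 fell there as Bdnf did, beside 9.43% of all genes called: Ntrk2, which encodes the receptor of Bdnf (-4.09, adjusted p = 6.956e-05), and Ngfr, the low-affinity neurotrophin receptor (-1.37, adjusted p = 0.00977). Ntf3, which encodes neurotrophin 3, was present in Hox 3 mesenchyme at 25.2 and 27.0 CPM in the E10.5 controls and fell with Hox 4 and 5 (-0.50, adjusted p = 0.0305) and with the outflow tract genes (-0.78, adjusted p = 0.0144). Ntrk3 rose with Hox 4 and 5 (1.15, adjusted p = 0.0328). In the interaction of genotype with domain, where 0.736% of all genes were called, 1 of 6 tested neurotrophin genes and receptors passed (Ngfr, 1.64, adjusted p = 0.0214), and 0 of 7 family relatives, 0 of 5 Meox1 partners and targets and 0 of 7 Hox 4 and 5 genes did. The medians were 0.61, 0.13, -0.50 and -1.25 in that order, against 0.04 over all genes. In Hoxa2 mesenchyme the Hox 4 and 5 genes had a median of 1.33, null against control, with 5 tested and 0 passing. Whether the Hoxa2 cells of the 2 genotypes were equally caudal, and the part of this in the Bdnf interaction, was not tested.

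Of 7 partners and targets linked to Meox1, 3 were tested inside the Hox 3 mesenchyme, and all 3 fell with Dlx5 and Dlx6 (9.43% of all genes called): Pax3 (-4.35, adjusted p = 0.000765), Uncx (-3.11, adjusted p = 0.00294) and Cdkn1a (-3.29, adjusted p = 0.00271). With Hox 4 and 5, where 6.04% of all genes were called, 1 of the 3 rose (Pax3, 1.41, adjusted p = 0.000165). With the outflow tract genes (15.2% of all genes called) 2 of the 3 fell, Pax3 (-2.75, adjusted p = 0.00217) and Uncx (-1.69, adjusted p = 0.0107). Meox1 itself passed none of these splits. Pax1 and Nkx3-2, which act with Meox genes in somites, were at or under 0.824 CPM in Hox 3 mesenchyme of every library. Of the 7 Hox 4 and 5 genes, 7 fell with Dlx5 and Dlx6 (median -1.86, beside 9.43% of all genes called) and 6 fell with the outflow tract genes (median -0.85, beside 15.2%). In the null against control contrast of Hox 3 mesenchyme no tested gene of the 4 lists passed, the medians being -0.13 (family relatives), 0.40 (neurotrophins and receptors), 0.98 (Meox1 partners and targets) and 0.09 (Hox 4 and 5), against -0.01 over all genes.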

How the data were processed

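UMI counts per gene and cell were deposited by the authors as 1 matrix per library, made with Cell Ranger 6.0.1 and mm10 as named in the submitters' processing notes. The authors' kits were v2 at E8.5 and v3 or v3.1 later. The 3′ chemistry keeps strand, and Cell Ranger by default counts sense reads, but the setting used is not given in the sources used here. Barcodes under 1000 detected genes or over 10% mitochondrial UMIs were dropped, and doublets called by Scrublet in scanpy 1.11.5 were removed at 0.8% per 1000 barcodes. Levels are CPM over all UMIs of a class, with exact Poisson intervals, and shares are of cells thinned to 5000 UMIs. These intervals and limits of 3 UMIs cover counting error only. For tests, counts of each class were added up within a library and fitted with edgeR 4.0.16 in R 4.3.3 (TMM, filterByExpr, glmQLFit, glmQLFTest), with Benjamini-Hochberg adjustment over all genes and SEs taken from the F statistic. Libraries, not cells, were the replicates. The labels do not say whether the E10.5 replicates were separate litters, so p-values measure the spread between these libraries. DESeq2 1.42.0 and other alternatives are compared in the closing section. At E9.5, with 1 library per genotype, no test was run, and 0.5 UMIs were added to each count for ratios.

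The members and lists were chosen with earlier results of these data known. Named genes were the 4 members, 3 family and partner lists, a Hox 4 and 5 list, and for each member the 3 genes most like it over the 18 profiles. From the lists, members that passed a test or were expressed highest were named. Crest markers are given as Sox10 and Foxd3, which define the crest class, a choice made after the data were seen, and the longer crest list is not reported here.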

Additional observations from a re-analysis of the deposited data

Results flagged for a closer look

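In Hox 3 mesenchyme, Bdnf was higher in null than in control at E9.5 and lower in both nulls than in both controls at E10.5. On levels scaled over the 6 libraries by TMM, the log2 ratio of null over control was 0.86 at E9.5 (25 UMIs in control and 45 in null) and its mean at E10.5 was -1.13. The difference between the stages was not tested, since E9.5 had 1 library per genotype. No group held 4 or more libraries, so no library could be tested as an outlier within its group.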

How the results depend on the processing

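Of 246 values of the 4 genes recomputed under alternatives, 193 kept their direction and side of the threshold or, for values with no test, moved by less than their counting interval or the spread between libraries (Slitrk6 at E9.5 in Hox 3 mesenchyme changed sign within it, to 0.17 with doublets kept), and of 56 counts of genes called 21 stayed within 1.5 times. Unless named, the cause of a change was not tested.

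Without a filter on low counts, 20 genes were called in Hox 3, 646 in Hoxa2 and 1441 in all mesenchyme and 701 for the interaction, where Bdnf was -1.58 and Meox1 1.35. With DESeq2 size factors 4 genes were called in all mesenchyme and 168 for the interaction (Bdnf -1.67), and Bdnf was -1.12 for the outflow tract genes (adjusted p = 0.0497). In Hox 3 mesenchyme DESeq2 called 148 genes, a limit of 1 Hox 3 UMI 4 and keeping doublets 3. With the outflow tract split at 1 UMI, Meox1 was 0.00108, Slitrk6 -0.86 and Tshz2 0.44. At E9.5 Meox1 in Hox 3 mesenchyme was -0.96 at 1 Hox 3 UMI, -0.91 with doublets kept and -0.70 in thinned cells, where Slitrk6 was 1.21 and Tshz2 -0.21.

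Thinning to 5000 UMIs sets the classes anew and leaves few cells, so its counts of calls are not comparable in power. It called 11 genes in Hox 3 and 28 in Hoxa2 mesenchyme (Bdnf -0.0803), 27 for the interaction, 21 for Dlx5 and Dlx6 (Meox1 -8.37, Tshz2 0.43, Bdnf not retained by the filter, 3 libraries), 106 for Hox 4 and 5 (Meox1 -0.11, Bdnf -0.43, Slitrk6 -0.16) and 138 for the outflow tract genes (Slitrk6 -1.88). Bdnf was 0.15 in all mesenchyme. The mean log2 ratio of Hox 3 over Hoxa2 at E10.5 was 1.64 for Bdnf and 1.96 for Slitrk6, against 2.71 and 3.02 without thinning.

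Leaving out each library in turn, with the lone library assumed to vary like the others, moved the counts called to 0 to 218 in Hox 3 (218 without null replicate 1), 106 to 1142 in Hoxa2, 9 to 318 in all mesenchyme, 104 to 656 for the interaction, 363 to 1285 for Dlx5 and Dlx6 (363 without control replicate 1), 472 to 651 for Hox 4 and 5 and 748 to 1631 for the outflow tract genes (748 without control replicate 1). Meox1 ranged from -1.23 to 0.77 in Hox 3, -1.35 to 0.0106 in Hoxa2 and -0.36 to 1.01 in all mesenchyme, -1.29 to 2.07 for the interaction, -0.13 to 0.19 for Dlx5 and Dlx6 and -0.43 to 0.0137 for the outflow tract genes. Bdnf ranged from -1.63 to -0.72 in Hox 3, -0.42 to 1.47 in Hoxa2 and -0.83 to 0.47 in all mesenchyme, -2.23 to -1.27 for the interaction, -0.069 to 0.23 for Hox 4 and 5 and -1.49 to -0.76 for the outflow tract genes. Slitrk6 ranged from -1.44 to -0.29 in Hox 3, -1.34 to -0.0272 in Hoxa2, -0.16 to 0.40 in all mesenchyme and -1.18 to 0.56 for the interaction. Tshz2 ranged from -0.80 to -0.23 in Hox 3, -0.42 to 0.0594 in Hoxa2, -0.41 to 0.0368 in all mesenchyme, -0.70 to -0.0246 for the interaction, 0.48 to 0.78 for Dlx5 and Dlx6 and 0.27 to 0.49 for the outflow tract genes.

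The labels do not pair libraries by replicate number, and deviations of same-numbered libraries correlated at -0.05 over 14316 genes. A replicate block gave 53 genes called in Hox 3, 460 in Hoxa2 and 89 in all mesenchyme. Meox1 in Hox 3 mesenchyme was -0.25 with the block (adjusted p = 0.863), and no call of the 4 genes changed.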
